A study of Homo sapiens with 12 samples.

Results

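Cells take up and exchange amino acids through membrane carriers of several solute carrier (SLC) families, and the RNA of these carriers is described here in HCC70, an established human line from a triple-negative breast cancer of basal type. The genes were taken by symbol: every row of the deposited table that begins with SLC1A, SLC3A, SLC6A, SLC7A, SLC36A, SLC38A or SLC43A followed by a digit. The rule used no measured value, although the members were chosen with earlier results of these data known. It matched 65 of 26365 rows. Of these, 35 reached 10 normalized counts in 2 or more libraries and entered the tests, 22 had reads but did not pass, and 8 had 0 reads in all 12 libraries. A normalized count is a read count divided by the size factor of its library.

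Per the labels, 6 groups of 2 libraries each were sequenced. HCC70 cells stably expressing an shRNA that targets LAD1 (shLAD1 cells) were collected at 0, 40 and 240 min of EGF, and HCC70 cells with a scrambled shRNA (scramble cells) at the same times. Cells of all 6 groups had grown in RPMI with serum and then spent a night without serum; EGF was given at 50 ng/ml, and the 0 min groups received none. The labels name a single shRNA against LAD1, so loss of LAD1 and any other effect of that shRNA cannot be told apart. No library without EGF was taken at 40 or 240 min, so effects of EGF, of elapsed time and of handling cannot be told apart. The labels number the libraries 1 and 2 without saying whether these are separate cultures, so p-values speak only of the spread between these libraries, and the labels leave unsaid whether it is technical. In all 6 groups the name of the library 1 column begins with o and that of library 2 with s, and what these letters mark is not said.

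The carriers differ in how they work. SLC3 heavy chains are single-pass glycoproteins that pair by a disulphide bond with an SLC7 light chain, which does the transport: SLC3A2 (4F2hc, CD98) with SLC7A5 (LAT1) exchanges large neutral amino acids such as leucine, and with SLC7A11 (xCT) exchanges cystine for glutamate. SLC7A1 (CAT1) carries arginine and lysine without a heavy chain, SLC1A5 (ASCT2) exchanges small neutral amino acids and glutamine, and SLC38A1 and SLC38A2 (SNAT1, SNAT2) take up glutamine and alanine with sodium. SLC36A1 and SLC38A9 act at the lysosome, where amino acids signal to mTORC1, and several carrier genes, SLC7A11, SLC7A5, SLC3A2 and SLC38A2 among them, are known targets of the amino acid stress factor ATF4.

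Stretches of 4 promoters are printed below because they hold, upstream of genes whose RNA is described in this text, the letters CACGTG (the E-box read by MYC and the TFE family) or TGANTCA (the AP-1 site read by FOS and JUN). The sequences are from RefSeq (GRCh38.p14, while the reads were aligned to hg19), 5′ to 3′ on the gene's strand, with the motif in capitals. They lie at chr5:151447533-151447602 (plus strand) for SLC36A1, chr16:87869603-87869672 (minus strand) for SLC7A5, chr11:62881629-62881698 (plus strand) for SLC3A2 and chr12:46266539-46266608 (minus strand) for SLC38A1, each within 250 bases upstream of a listed start of its gene. SLC36A1, SLC3A2 and SLC38A1 have other listed starts, and the 250 bases upstream of those hold neither motif.
SLC36A1: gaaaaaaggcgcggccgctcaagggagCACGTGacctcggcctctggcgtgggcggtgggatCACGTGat
SLC7A5: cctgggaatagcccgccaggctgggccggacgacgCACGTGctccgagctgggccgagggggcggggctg
SLC3A2: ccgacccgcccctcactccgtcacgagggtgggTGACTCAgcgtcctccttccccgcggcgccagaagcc
SLC38A1: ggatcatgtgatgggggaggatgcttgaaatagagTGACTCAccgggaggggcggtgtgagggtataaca

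Promoters of 27 of the 35 tested rows were in the RefSeq table, with 48 listed starts. Searched on both strands over 250 bases, CACGTG was found in 7 of these 48 promoters (14.6%) and in 6.34% of all 35116 promoters. TGANTCA was found in 8 of 48 (16.7%) and in 6.57% of all. The SLC7A8 match (TGATTCA) and 1 of the 2 SLC1A3 matches (TGAATCA) have a middle letter outside the AP-1 site. TGATGNAA, the core shared by ATF4 and C/EBP composite sites, was found in 2 of 48 (4.17%; SLC1A3 and SLC1A5) and in 3.14% of all. No match of a motif overlapped a match of another. The 48 promoters belong to rows that passed the count filter, while the 35116 belong to 27305 genes, whether or not expressed here. Some genes have several listed starts, whose windows can overlap. The shares are therefore of unlike sets. These matches describe letters in a window, and were not tested as sites.

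The labels were checked first. LAD1 RNA in shLAD1 cells was 15.9%, 17.5% and 25.0% of that in scramble cells at 0, 40 and 240 min. EGR1, an immediate early gene, averaged 502, 34474 and 1746 normalized counts in shLAD1 cells and 387, 29481 and 604 in scramble cells at 0, 40 and 240 min. The libraries held 12428618 to 16721013 reads. KRT5 (39623 to 78195 normalized counts) and EPCAM (2644 to 3552) were high in every library and PGR was at 0 to 1.03. ESR1 (18.0 to 29.0) and TP63, another basal marker (15.4 to 34.5), were low but had reads in every library. The 9 markers of blood, endothelial, stromal and liver cells summed to 550.5 to 927 in shLAD1 libraries and 255 to 383 in scramble libraries. Most of that was COL1A1, without which the sums were 26.7 to 44.0 and 8.35 to 17.6. DCN and ALB were at 0 in all 12 libraries. The part of this difference in the shRNA comparisons below was not tested.

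By role, the tested rows were 1 of 2 heavy chains, 5 of 8 light chains, 1 of 5 cationic-type SLC7 genes, 2 of 5 glutamate carriers of SLC1, both neutral carriers of SLC1, 7 of 11 SLC38 genes, 2 of 4 SLC36 genes, 3 of 3 SLC43 genes, 3 of 9 amino acid carriers of SLC6, 6 of 10 SLC6 carriers of transmitters and osmolytes, and 3 of 6 pseudogenes, antisense or opposite-strand rows. Among the 22 rows with reads that did not pass, the highest value in any library was 6.29 normalized counts, for SLC3A1, the heavy chain of kidney and gut. SLC1A7, SLC6A3, SLC6A5, SLC6A7, SLC6A10P, SLC6A15, SLC7A3 and SLC38A8 had 0 reads, and a count of 0 allows up to 3 reads in a library. SLC7A5P1 and SLC7A5P2 are near copies of SLC7A5, and SLC6A10P is a near copy of SLC6A8, so reads may have been split between them and their values are uncertain. SLC7A6OS lies beside SLC7A6 on the opposite strand and encodes no carrier. The use of strand in counting is not given in the sources used here, so reads of overlapping genes cannot be told apart. In bulk RNA, fewer cells expressing a gene and less RNA per cell cannot be told apart either.

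At 40 min of EGF none of the 35 tested rows passed the test in either kind of cell. The 35 are called carriers below, although 3 of them are pseudogenes or opposite-strand genes (SLC7A5P1, SLC7A5P2 and SLC7A6OS). Changes are given below as log2 differences of normalized count + 1, with the standard error of a limma-trend fit over all 12 libraries and its Benjamini-Hochberg adjusted p over 13950 genes. In shLAD1 cells 0 of 35 were called at an adjusted p under 0.05 (2 at an unadjusted p under 0.05), against 1.04% of all genes tested. In scramble cells 0 of 35 were called (0 at an unadjusted p under 0.05), against 0.853% of all genes. An unadjusted p under 0.05 was reached by 761 of all 13950 genes in shLAD1 cells and by 634 in scramble cells. edgeR and DESeq2 on the recovered reads also called 0 in both. The carriers' changes ran from -0.22 to 0.54 in shLAD1 cells and from -0.48 to 0.45 in scramble cells.

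Same-numbered libraries of an shRNA deviated together. They form 4 sets, called cell populations below, although the labels do not say that they are. A fit with a block for each set is also given. With that block, 2 carriers were called at 40 min in shLAD1 cells and 3 in scramble cells, all of them higher. The same fit called 4.77% of all genes in shLAD1 cells and 3.8% in scramble cells. SLC38A2 had 2978 and 3104 normalized counts at 0 min, 3740.0 and 3567 at 40 min and 3222 and 3321 at 240 min in libraries 1 and 2 of shLAD1 cells. In scramble cells it had 2981 and 3396, 3358 and 3837, and 2972 and 3124. Both 40 min libraries were the highest in shLAD1 cells; in scramble cells each number was highest at 40 min, but library 1 at 40 min lay below library 2 at 0 min. Its change at 40 min was 0.26 in shLAD1 cells (adjusted p = 0.508, and 0.000522 with the population block) and 0.17 in scramble cells (adjusted p = 1, and 0.0342 with the block). SLC7A5 differed at 40 min by 0.23 in shLAD1 cells (adjusted p = 0.709, and 0.00223 with the block) and by 0.16 in scramble cells (adjusted p = 1, and 0.0498 with the block). SLC3A2 differed by 0.11 in shLAD1 cells (adjusted p = 1, and 0.225 with the block) and by 0.16 in scramble cells (adjusted p = 1, and 0.0463 with the block).

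By 240 min carriers had moved in both directions. In shLAD1 cells SLC43A3, SLC36A1 and SLC7A1 rose and SLC6A9 and SLC38A9 fell, which is 5 of 35 (14.3%), against 18.5% of all genes tested (10.8% higher and 7.76% lower). In scramble cells SLC43A3, SLC36A1, SLC38A1 and SLC7A1 rose and SLC6A9 fell, again 5 of 35 (14.3%), against 20.2% of all genes (11.7% higher and 8.44% lower). The carriers' median change was 0.10 in shLAD1 cells and 0.03 in scramble cells, beside medians of -0.01 and -0.02 over all genes tested. With a block for the replicate number the counts were 11 in shLAD1 cells and 11 in scramble cells, where that fit called 30.5% and 32.7% of all genes. The block for the 4 populations called 24 and 16 carriers, and 46.2% and 48.1% of all genes. With only the compared groups in the fit 1 and 10 carriers were called, and 2.34% and 23.1% of all genes.

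**Figure D1:**
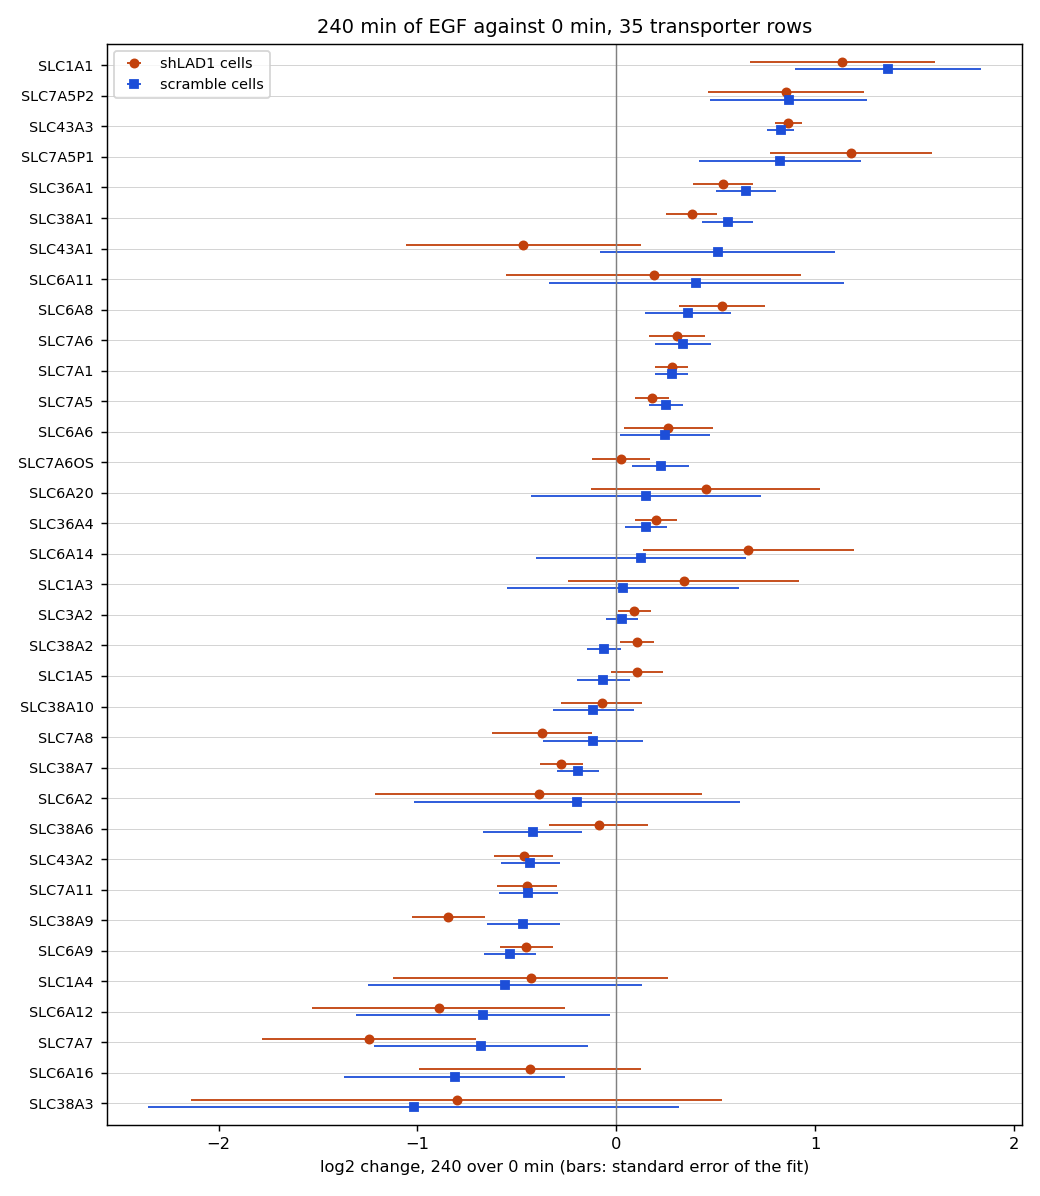
Log2 change at 240 min over 0 min of EGF for the 35 tested rows (horizontal axis), with circles for shLAD1 cells, squares for scramble cells and bars for the standard error of the fit. SLC43A3 stands at 0.87 in shLAD1 and 0.83 in scramble cells with short bars, and low genes such as SLC38A3 have long ones.

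SLC43A3, which carries nucleobases rather than amino acids although its family holds leucine carriers, had the smallest adjusted p of the 35. In shLAD1 cells it had 1426 and 1382 normalized counts at 0 min, 1536 and 1565 at 40 min and 2441 and 2685 at 240 min. In scramble cells it had 1709 and 1791, 1952 and 1938, and 3002 and 3209. Both 240 min libraries lay above all 4 earlier libraries of the same shRNA. Between 240 and 0 min SLC43A3 rose by 0.87 ± 0.07 in shLAD1 cells (adjusted p = 0.000145) and by 0.83 ± 0.07 in scramble cells (adjusted p = 0.000158). Between 240 and 40 min it rose by 0.72 ± 0.07 in shLAD1 cells (adjusted p = 0.000425) and by 0.67 ± 0.07 in scramble cells (adjusted p = 0.000484). Among the carriers called at 240 min it was the only one called in every refit that left out 1 library, in both kinds of cell. Fitted on the compared groups alone, its rise between 240 and 40 min in shLAD1 cells had an adjusted p of 0.0524. Its relative SLC43A2, a carrier of leucine and phenylalanine, gave -0.46 ± 0.15 in shLAD1 cells (adjusted p = 0.0591, and 0.00813 with the replicate block) and -0.43 ± 0.15 in scramble cells (adjusted p = 0.0707, and 0.0108 with the block).

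SLC36A1 (PAT1) moves small amino acids with protons, out of the lysosome among other places, and its printed promoter holds CACGTG at 2 places. Normalized counts were 289 and 248 at 0 min, 280.0 and 241 at 40 min and 439 and 345 at 240 min in shLAD1 cells. They were 188 and 186, 210.2 and 205, and 325 and 267 in scramble cells. The 240 min libraries lay above the earlier ones in both. SLC36A1 rose between 240 and 0 min by 0.54 ± 0.15 in shLAD1 cells (adjusted p = 0.0375) and by 0.65 ± 0.15 in scramble cells (adjusted p = 0.0158). Each call held without library 2 at 240 min (adjusted p = 0.0343 in shLAD1 and 0.0309 in scramble cells) and was lost without any of the other 3 libraries compared (0.0549 to 0.198 and 0.0728 to 0.107). With upper-quartile scaling the shLAD1 rise was 0.49 (adjusted p = 0.0522), and with total-count scaling 0.42 (adjusted p = 0.0955). SLC36A4, the other tested gene of its family, gave 0.20 ± 0.10 in shLAD1 and 0.15 ± 0.10 in scramble cells, neither called.

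SLC38A1, a sodium-coupled glutamine carrier, had 3279.6 and 2719 normalized counts at 0 min, 3522 and 2827 at 40 min and 4205 and 3586 at 240 min in shLAD1 cells. Scramble cells had 2806 and 3076, 3038 and 3254, and 4256 and 4416. The 240 min libraries were the highest of each shRNA. SLC38A1 rose in scramble cells by 0.56 ± 0.13 between 240 and 0 min (adjusted p = 0.0154). In shLAD1 cells the difference was 0.38 ± 0.13 (adjusted p = 0.0759, and 0.0372 with the replicate block). The difference between these 2 responses was -0.18 ± 0.18 (adjusted p = 1), so a difference between the cells was not detected. The scramble call was lost in all 4 refits without 1 of the libraries compared (adjusted p 0.0519 to 0.101).

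SLC7A1, the arginine and lysine carrier, had 1724 and 1871 normalized counts at 0 min, 1856 and 1967 at 40 min and 2059.6 and 2307 at 240 min in shLAD1 cells. In scramble cells it had 2073 and 2106, 2119.5 and 2350.4, and 2599 and 2472. The 240 min libraries again lay above the earlier ones. SLC7A1 rose between 240 and 0 min by 0.28 ± 0.08 in shLAD1 cells (adjusted p = 0.0468) and by 0.28 ± 0.08 in scramble cells (adjusted p = 0.0447). Total-count scaling moved the median of all genes by -0.12 and -0.13 in these comparisons. With it SLC7A1 gave 0.16 (adjusted p = 0.19) in shLAD1 and 0.15 (adjusted p = 0.202) in scramble cells. The scramble call was lost without any of its 4 libraries (adjusted p 0.108 to 0.192), and the shLAD1 call held only without library 1 at 240 min (0.0421, against 0.0766 to 0.241 without the others).

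SLC6A9 and SLC38A9 fell by 240 min. SLC6A9 (GlyT1), the sodium- and chloride-coupled glycine carrier, had 3042 and 3412 normalized counts at 0 min, 2919 and 3351 at 40 min and 2216 and 2505 at 240 min in shLAD1 cells. In scramble cells it had 2333 and 2904, 2324 and 2774, and 1765 and 1833. Its 240 min libraries lay below all earlier ones of the same shRNA. SLC6A9 fell between 240 and 0 min, with a change of -0.45 ± 0.13 in shLAD1 cells (adjusted p = 0.0429) and -0.53 ± 0.13 in scramble cells (adjusted p = 0.0207). The shLAD1 call was lost without any of its 4 libraries (adjusted p 0.0663 to 0.198), and the scramble call held only without library 1 at 0 min (0.0222, against 0.083 to 0.147 without the others).

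SLC38A9, the lysosomal arginine sensor of the mTORC1 pathway, had 129 and 141 normalized counts at 0 min, 133 and 137 at 40 min and 67.5 and 83.0 at 240 min in shLAD1 cells. Scramble cells had 129 and 116, 123 and 159, and 78.8 and 99.1. All 4 libraries at 240 min lay below the 8 earlier ones. SLC38A9 fell in shLAD1 cells, with a change of -0.84 ± 0.18 between 240 and 0 min (adjusted p = 0.0131). In scramble cells the difference was -0.47 ± 0.18 (adjusted p = 0.109, and 0.0427 with the replicate block), and the 2 responses differed by -0.38 ± 0.26 (adjusted p = 1). The shLAD1 call held without library 1 at 0 min (0.0394) or library 2 at 240 min (0.0281) and was lost without either of the others (0.0735 and 0.0767).

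**Figure D2:**
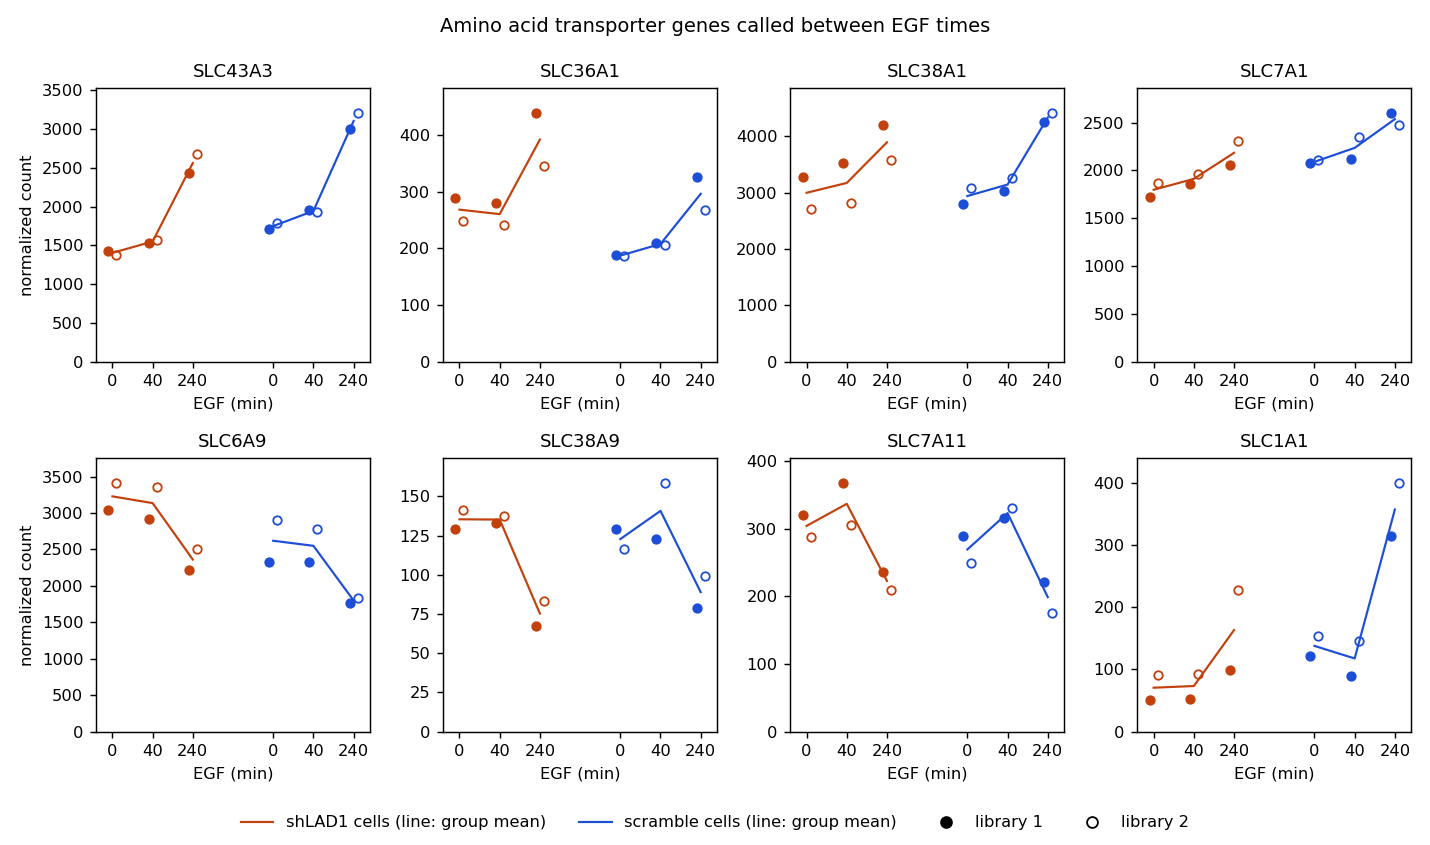
Normalized counts (vertical axis, from 0) of the 8 carriers called between EGF times, at 0, 40 and 240 min (spaced evenly, not to scale), with shLAD1 cells left of scramble cells; filled and open points are libraries 1 and 2 and lines join group means. The 240 min points of SLC43A3 lie above, and those of SLC6A9 and SLC38A9 below, all earlier points of the same shRNA.

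The comparison of 240 with 40 min, which shares its 240 min libraries with the comparison above, called 4 of 35 carriers in shLAD1 cells, against 16.4% of all genes tested, and 7 of 35 in scramble cells, against 18.5%. With the replicate block the counts were 9 and 9, where that fit called 28.7% and 30.5% of all genes. In shLAD1 cells SLC43A3 and SLC36A1 (0.58 ± 0.15, adjusted p = 0.0301) rose and SLC7A11 and SLC38A9 (-0.84 ± 0.18, adjusted p = 0.0143) fell. In scramble cells SLC1A1, SLC43A3, SLC36A1 (0.50 ± 0.15, adjusted p = 0.0484) and SLC38A1 (0.46 ± 0.13, adjusted p = 0.0364) rose, and SLC7A11, SLC38A9 (-0.65 ± 0.18, adjusted p = 0.0368) and SLC6A9 (-0.50 ± 0.13, adjusted p = 0.0294) fell. SLC6A9 gave -0.41 ± 0.13 in shLAD1 cells (adjusted p = 0.0664, and 0.00111 with the block). The scramble calls of SLC1A1, SLC36A1, SLC38A1 and SLC38A9 were lost without any 1 of the libraries compared (adjusted p 0.0504 to 0.249), and that of SLC6A9 held only without library 1 at 40 min (0.044). In shLAD1 cells the calls of SLC36A1 (0.0325) and SLC38A9 (0.0328) held only without library 2 at 240 min. With edgeR the scramble call of SLC36A1 was also lost (adjusted p = 0.0551).

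SLC7A11, the light chain of the cystine and glutamate exchanger, had 320.4 and 288 normalized counts at 0 min, 368 and 306 at 40 min and 236 and 209 at 240 min in shLAD1 cells. In scramble cells it had 289 and 249.8, 316 and 331, and 222 and 176. The libraries at 240 min were the lowest of each shRNA. SLC7A11 fell between 240 and 40 min, with a change of -0.59 ± 0.15 in shLAD1 cells (adjusted p = 0.0264) and -0.71 ± 0.15 in scramble cells (adjusted p = 0.0112). Against 0 min the differences were -0.45 ± 0.15 (adjusted p = 0.0686, and 0.00988 with the replicate block) and -0.44 ± 0.15 (adjusted p = 0.0672, and 0.00998 with the block). The shLAD1 call held only without library 2 at 40 min (0.0404, against 0.0507 to 0.139 without the others) and the scramble call only without library 1 at 240 min (0.0157, against 0.0545 to 0.0851).

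SLC1A1 (EAAT3), which takes up glutamate, aspartate and cysteine, had 50.3 and 90.6 normalized counts at 0 min, 53.1 and 93.3 at 40 min and 98.2 and 228 at 240 min in shLAD1 cells. Scramble cells had 121 and 154, 89.6 and 145, and 314 and 399.7. Library 2 was higher than library 1 in all 6 groups, and the 240 min libraries lay above the earlier ones of the same shRNA. SLC1A1 rose between 240 and 40 min in scramble cells, by 1.63 ± 0.47 (adjusted p = 0.0434). In shLAD1 cells the difference was 1.08 ± 0.47 (adjusted p = 0.163, and 0.00269 with the replicate block). Between 240 and 0 min it was 1.14 ± 0.47 in shLAD1 cells (adjusted p = 0.135, and 0.00177 with the block) and 1.37 ± 0.47 in scramble cells (adjusted p = 0.0738, and 0.000517 with the block). The glutamine exchanger SLC1A5 ran between 5226 and 6561 normalized counts in the 6 shLAD1 libraries and between 6098 and 7591 in the 6 scramble libraries, and its EGF differences of -0.13 to 0.10 were not called. With the population block, SLC1A5 was called at 240 against 0 min in shLAD1 cells (0.10, adjusted p = 0.0322) and at 240 against 40 min in scramble cells (-0.13, adjusted p = 0.00909).

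The leucine exchanger SLC7A5 was not called at 240 min in the fit of group means. Its difference between 240 and 0 min was 0.18 ± 0.09 in shLAD1 cells (adjusted p = 0.19, 0.0581 with the replicate block and 0.00265 with the population block). Scramble cells gave 0.25 ± 0.09 (adjusted p = 0.071, 0.0129 with the replicate block, 8.96e-05 with the population block and 0.0434 with DESeq2). Its heavy chain SLC3A2 differed by 0.09 ± 0.08 in shLAD1 and 0.03 ± 0.08 in scramble cells, and SLC38A2 by 0.11 ± 0.09 and -0.06 ± 0.09, none called.

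The genes around the carriers moved as follows, from lists chosen with earlier results of these data known. Of 22 genes of the ATF4 response, 1 rose and 6 fell between 240 and 0 min in shLAD1 cells, and 0 rose and 8 fell in scramble cells. That is 31.8% and 36.4% of the list, beside the 18.5% and 20.2% of all genes given above. SESN2, a stress-induced leucine sensor, fell, with a change of -1.47 ± 0.16 in shLAD1 cells (adjusted p = 0.000611) and -2.19 ± 0.16 in scramble cells (adjusted p = 0.000107). CHAC1, which degrades glutathione, changed by -1.84 ± 0.21 in shLAD1 cells (adjusted p = 0.00078) and -2.75 ± 0.21 in scramble cells (adjusted p = 0.000128). For DDIT3, a stress transcription factor, the changes were -0.94 ± 0.17 in shLAD1 cells (adjusted p = 0.00485) and -1.06 ± 0.17 in scramble cells (adjusted p = 0.00244). For PSAT1 of serine synthesis they were -0.28 ± 0.07 in shLAD1 cells (adjusted p = 0.029) and -0.39 ± 0.07 in scramble cells (adjusted p = 0.00697). The riser in shLAD1 cells was CEBPB (0.45 ± 0.10, adjusted p = 0.0128). At 40 min only ATF3 of the 22 was called, rising by 3.26 ± 0.39 in shLAD1 cells (adjusted p = 0.00564) and by 2.81 ± 0.39 in scramble cells (adjusted p = 0.0148). The list's median change at 240 min was -0.21 in shLAD1 cells and -0.35 in scramble cells.

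Of 28 genes of amino acid sensing by mTORC1, 3 rose and 3 fell in shLAD1 cells at 240 min, and 3 rose and 1 fell in scramble cells. These shares, 21.4% and 14.3%, and the 18.8% of the glutamine list below in each kind of cell, lie near those of all genes (18.5% and 20.2%). SEH1L (0.64 ± 0.08 in shLAD1 and 0.63 ± 0.08 in scramble cells) and MIOS (0.56 ± 0.12 and 0.44 ± 0.12), subunits of the GATOR complex, and the Rag GTPase RRAGA (0.31 ± 0.06 and 0.24 ± 0.06) rose, and the kinase MTOR fell (-0.25 ± 0.07 and -0.22 ± 0.07). Of 16 genes of glutamine and glutathione metabolism, 3 rose and 0 fell in each kind of cell, among them PPAT of purine synthesis (0.78 ± 0.11 in shLAD1 and 0.84 ± 0.11 in scramble cells) and the glutamate dehydrogenase GLUD1 (0.27 ± 0.08 and 0.33 ± 0.08). Of 12 amino acid carriers outside the 7 families 7 were tested, and 4 rose and 1 fell in each kind of cell, 71.4% of these 7. The mitochondrial aspartate and glutamate exchanger SLC25A12 fell (-0.58 ± 0.09 and -0.92 ± 0.09), while its relative SLC25A13 (0.51 ± 0.08 and 0.36 ± 0.08), the glutamate carrier SLC25A22 (0.61 ± 0.13 and 0.58 ± 0.13) and the lysosomal histidine carrier SLC15A4 (0.82 ± 0.12 and 0.51 ± 0.12) rose. Adjusted p for these genes ran from 0.000383 to 0.0409.

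Between shLAD1 and scramble cells SLC7A5 was the only carrier called at all 3 times in the fit of group means, lower in shLAD1 cells at each. At 0 min 1 of 35 carriers was called, against 1.56% of all genes tested. At 40 min 2 of 35 were called, against 1.65%, and at 240 min 1 of 35, against 0.953%. The carriers' median difference was -0.27, -0.22 and -0.24 at 0, 40 and 240 min, beside 0.00, 0.00 and 0.00 over all genes. With the replicate block the counts were 11, 11 and 10, where that fit called 11.5%, 11.3% and 10.5% of all genes, and 8 carriers were called at all 3 times: SLC1A3, SLC38A7, SLC3A2, SLC43A1, SLC43A3, SLC6A14, SLC6A9 and SLC7A5. With DESeq2 they were 4, 6 and 4, beside 3.66%, 3.93% and 2.78% of all genes, and SLC1A3, SLC43A3 and SLC7A5 were called at all 3 times. The share of all genes called at all 3 times is not given here, so these counts were not set against one. Of the carriers named, SLC43A1 passed the count filter only through scramble cells. With only the compared groups in the fit 0 carriers and 1 gene of all tested were called at each time. The replicate block is 1 term for both shRNAs, while libraries deviated together more strongly within an shRNA than across. Its p-values, here and for each carrier below, take the 3 times of a library number as separate samples. The 3 comparisons draw on same-numbered libraries that deviated together, so they were not taken as independent.

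SLC7A5, the leucine exchanger, had 5474 and 4657 normalized counts in shLAD1 cells, against 7104 and 7294 in scramble cells, at 0 min. It had 6165 and 5666 against 8111 and 7988 at 40 min, and 5803 and 5624 against 8889.7 and 8234 at 240 min. All 6 shLAD1 libraries lay below all 6 scramble libraries. SLC7A5 was lower in shLAD1 cells by a log2 difference of -0.51 ± 0.09 at 0 min (adjusted p = 0.0281), -0.45 ± 0.09 at 40 min (adjusted p = 0.0396) and -0.58 ± 0.09 at 240 min (adjusted p = 0.0202). The 0 min call held only without shLAD1 library 1 (0.0388, against 0.0995 to 0.204 without the others). The calls at 40 min (0.11 to 0.245) and 240 min (0.0699 to 0.143) were lost without any 1 of the libraries compared. With the replicate block the adjusted p was 0.0011, 0.00225 and 0.000605. The authors' deposited table gave SLC7A5 a log2 fold change of -0.51 at 0 min with an adjusted p of 2.9e-05. The 2 near copies had the same sign: SLC7A5P1 gave -1.08 ± 0.41 and SLC7A5P2 -0.53 ± 0.39 at 0 min, and neither was called. They had no more than 38.3 normalized counts in any library. Reads may have been split between them and SLC7A5, so their sign is not a separate observation.

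The heavy chain SLC3A2 had 3577 and 3198 normalized counts in shLAD1 cells, against 4207 and 3941 in scramble cells, at 0 min. It had 3802 and 3493 against 4612 and 4476 at 40 min, and 3646 and 3563 against 4353 and 3958 at 240 min. All 6 shLAD1 libraries lay below all 6 scramble libraries, as with SLC7A5. The differences were -0.27 ± 0.08, -0.32 ± 0.08 and -0.20 ± 0.08, not called at any time (adjusted p 0.103 to 0.286, and 0.0103, 0.00453 and 0.0353 with the replicate block).

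**Figure D3:**
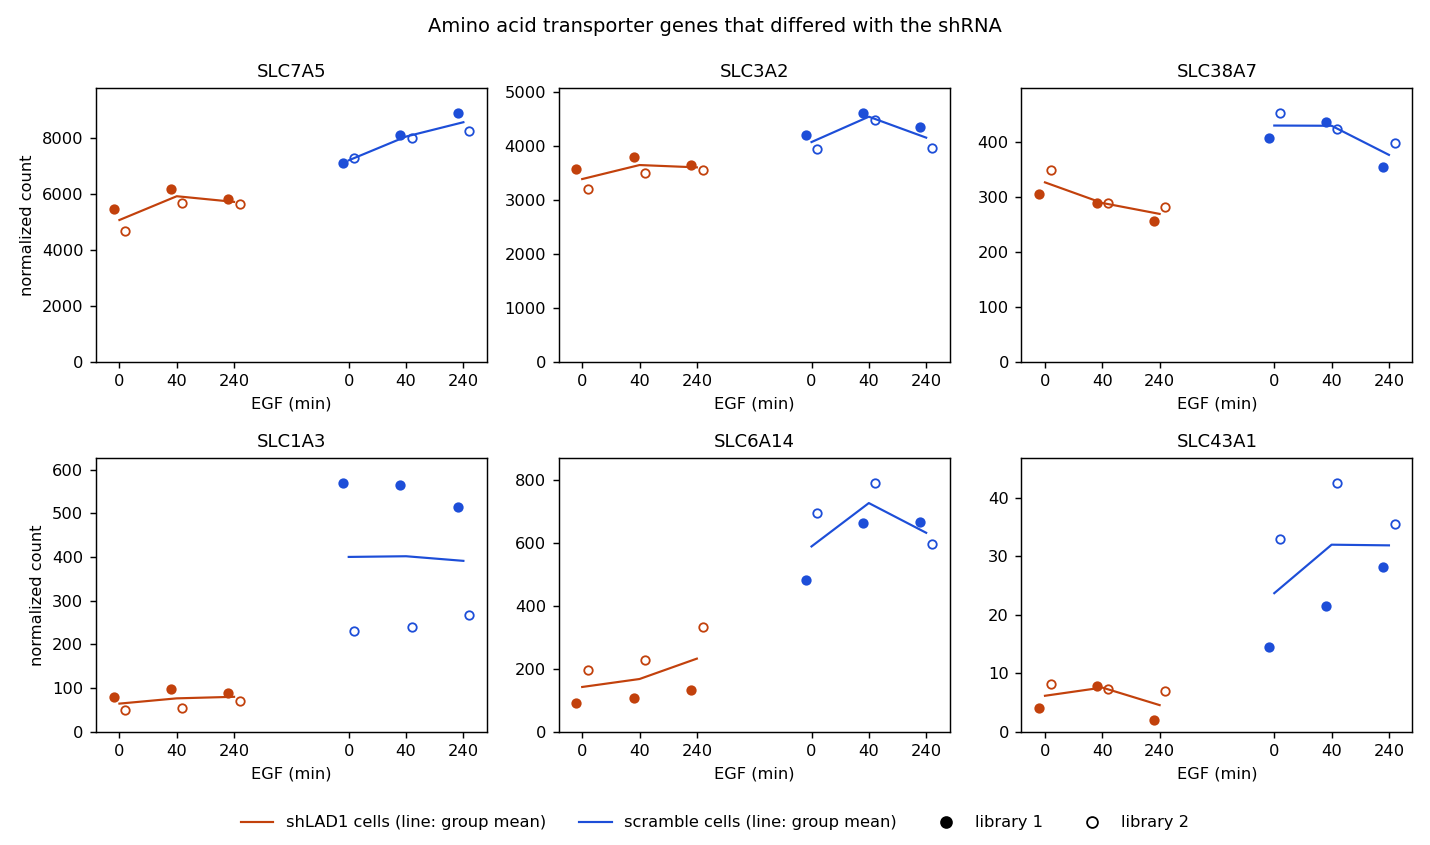
Normalized counts (vertical axis, from 0) of 6 carriers that differed with the shRNA when the 3 times were averaged, at 0, 40 and 240 min of EGF (spaced evenly, not to scale), with shLAD1 cells left of scramble cells; filled and open points are libraries 1 and 2 and lines join group means. All shLAD1 points of SLC7A5 and SLC3A2 lie below all scramble points, and the scramble points of SLC1A3 fall into a high library 1 and a lower library 2.

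SLC38A7, a lysosomal glutamine and asparagine carrier, had 305 and 349 normalized counts in shLAD1 cells, against 408 and 453 in scramble cells, at 0 min. It had 289 and 290.2 against 436 and 424 at 40 min, and 257 and 282 against 356 and 399 at 240 min. All 6 shLAD1 libraries lay below all 6 scramble libraries. It was called at 40 min (-0.57 ± 0.11, adjusted p = 0.0383), a call lost without any 1 of the 4 libraries (0.121 to 0.237). At 0 and 240 min the differences were -0.40 ± 0.11 (adjusted p = 0.113, and 0.0187 with the replicate block) and -0.48 ± 0.11 (adjusted p = 0.0797, and 0.00947 with the block).

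The largest differences belonged to carriers whose libraries spread widely. SLC1A3 (EAAT1), a glutamate and aspartate carrier, had 79.1 and 48.8 normalized counts in shLAD1 cells, against 569 and 230.3 in scramble cells, at 0 min. It had 97.5 and 54.5 against 564 and 239 at 40 min, and 89.0 and 70.0 against 514 and 267 at 240 min. The shLAD1 libraries lay below the scramble libraries at every time, but scramble library 1 held far more than library 2. The differences were -2.52 ± 0.58, -2.32 ± 0.58 and -2.22 ± 0.58 (adjusted p 0.0803 to 0.133, and 0.000137, 0.000202 and 0.000349 with the replicate block). The authors' deposited table gave SLC1A3 a log2 fold change of -2.64 with an adjusted p of 0.000142.

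SLC6A14 (ATB0,+), a broad carrier of neutral and cationic amino acids, had 89.3 and 194 normalized counts in shLAD1 cells, against 482 and 696 in scramble cells, at 0 min. It had 108 and 226 against 663 and 792 at 40 min, and 132 and 332 against 668 and 598 at 240 min. The shLAD1 libraries again lay below all scramble libraries, and shLAD1 library 1 below library 2 at each time. The differences were -2.13 ± 0.53, -2.20 ± 0.53 and -1.59 ± 0.53 (adjusted p 0.0963 to 0.225, and 0.0132, 0.0117 and 0.0377 with the replicate block). In the authors' deposited table SLC6A14 had a log2 fold change of -2.05 with an adjusted p of 0.00101, and SLC43A3 one of -0.32 with an adjusted p of 0.0141. For SLC43A3 the fit here gave -0.32 ± 0.07 at 0 min (adjusted p = 0.0615, and 0.00877 with the block). SLC43A1 (LAT3), a leucine carrier, had no more than 8.14 normalized counts in an shLAD1 library and no fewer than 14.5 in a scramble library. It therefore passed the count filter only through scramble cells.

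Averaged over the 3 times, 14 of 35 carriers were called (40%), against 18.6% of all genes tested (9.25% higher and 9.3% lower in shLAD1 cells). SLC7A8 (0.48), SLC36A1 (0.41) and SLC6A9 (0.33) were higher in shLAD1 cells. SLC1A3 (-2.35), SLC43A1 (-2.12), SLC6A14 (-1.97), SLC7A7 (-1.41), SLC1A1 (-0.98), SLC7A5P1 (-0.80), SLC7A5 (-0.51), SLC38A7 (-0.48), SLC43A3 (-0.31), SLC3A2 (-0.26) and SLC7A1 (-0.22) were lower. This fit counts the 3 times of a cell population as separate samples. With 1 mean for each of the 4 populations, 0 of 35 carriers and 0 of all genes were called, with the same differences and adjusted p from 0.192 (SLC7A5) to 0.439 (SLC7A8) for these 14. SLC1A1 (called in 4 of 12 refits), SLC7A5P1 (2 of 12) and SLC7A8 (3 of 12) lost the call when most single libraries were left out, with adjusted p up to 0.122, while the other 11 kept it in all 12.

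**Figure D4:**
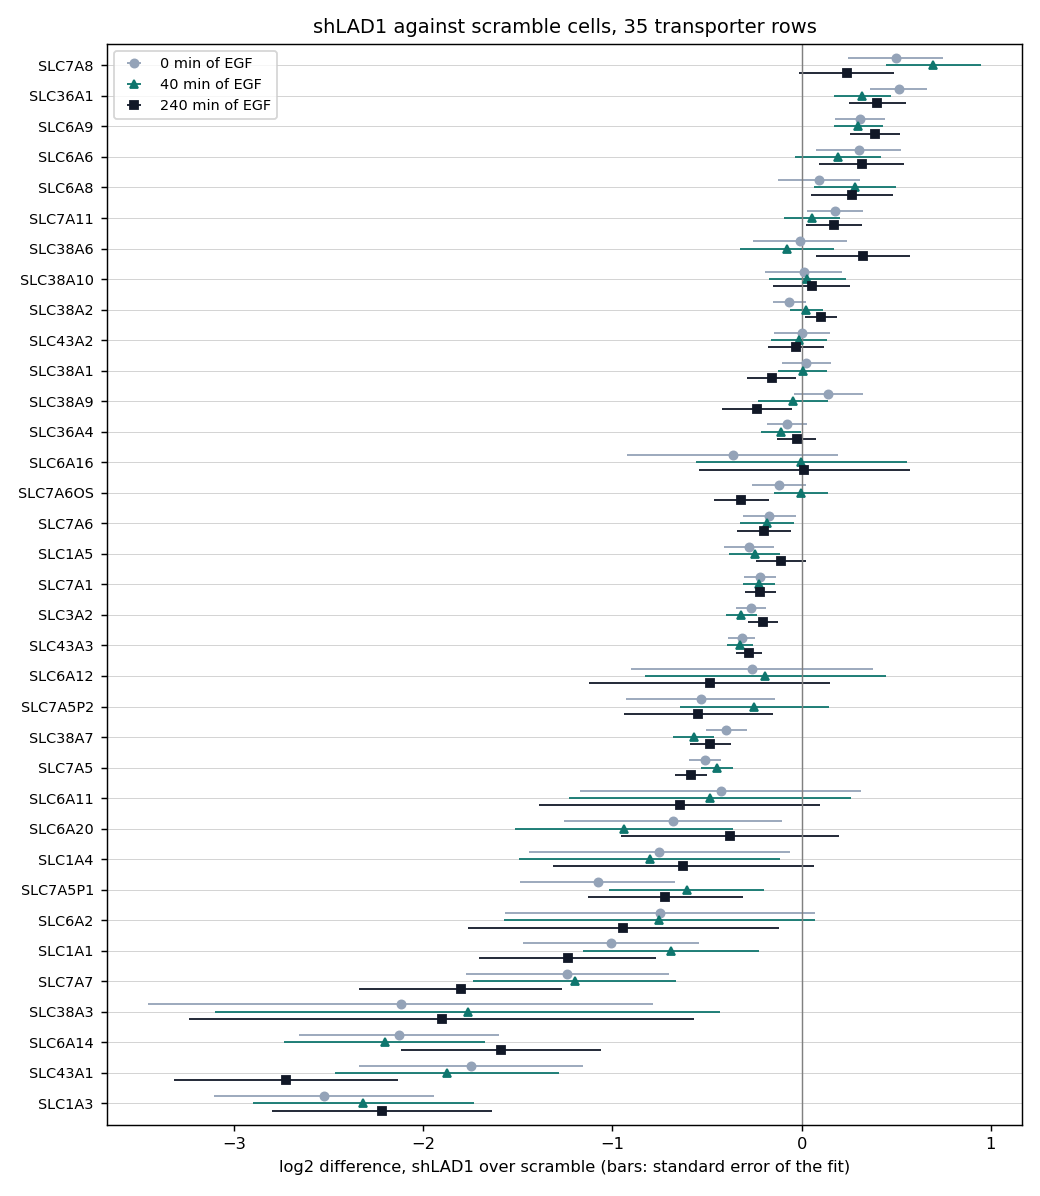
Log2 difference, shLAD1 over scramble, for the 35 tested rows (horizontal axis), with circles for 0 min, triangles for 40 min and squares for 240 min of EGF and bars for the standard error of the fit. SLC7A5 and SLC38A7 lie left of 0 with short bars at all 3 times, and the rows farthest left, such as SLC1A3, have bars several times as long.

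Around the carriers, 1 of the 22 ATF4 genes (4.55%) was called at each time, beside 1.56%, 1.65% and 0.953% of all genes: PSAT1, lower in shLAD1 cells by log2 differences of -0.71 ± 0.07 at 0 min, -0.68 ± 0.07 at 40 min and -0.61 ± 0.07 at 240 min (adjusted p 0.00541 to 0.0111). Of the 28 mTORC1 genes, 3, 3 and 2 (10.7%, 10.7% and 7.14%) were called, all lower in shLAD1 cells: the Rag GTPase RRAGD (-2.36 ± 0.39 at 0 min, adjusted p = 0.0257), SESN3 (-1.40 ± 0.25, adjusted p = 0.031) and MTOR (-0.36 ± 0.07, adjusted p = 0.0345), of which SESN3 was not called at 240 min. None of the 16 glutamine and glutathione genes or the 7 other carriers was called at a single time. At 0 min 4 of the 16 and 1 of the 7 had an unadjusted p under 0.05 in the limma fit, as had 2197 of all 13950 genes.

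No carrier's EGF response was found to differ between the 2 kinds of cell. The response in shLAD1 cells minus that in scramble cells ran from -0.26 to 0.47 at 40 min and from -0.98 to 0.54 at 240 min over the 35 carriers. None was called by limma, edgeR or DESeq2, and 0 had an unadjusted p under 0.05. Of all genes tested 0% were called at either time, while 99 genes at 40 min and 133 at 240 min had an unadjusted p under 0.05. The standard errors, 0.10 for SLC43A3 and 1.89 for SLC38A3 at 240 min, set what could have been seen.

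Some carriers differed more between the 2 libraries of shLAD1 cells than with EGF or the shRNA; they are described because of that difference, and were chosen after their values were seen. SLC1A4 (ASCT1), a carrier of alanine, serine and cysteine, had 176 normalized counts in library 1 and 554 in library 2 of shLAD1 cells at 0 min, 169 and 541 at 40 min, and 144 and 370.2 at 240 min. In scramble cells it had 510.3 and 543, 477 and 584, and 418 and 305. Library 1 of shLAD1 cells was the lowest of the 4 cell populations at every time. SLC6A2, the noradrenaline carrier, had 73.9 and 284, 66.6 and 278, and 62.4 and 195 in shLAD1 cells, against 269 and 222, 221 and 239.6, and 249 and 183 in scramble cells. SLC6A12, the betaine and GABA carrier, had 56.5 and 178, 53.1 and 160.3, and 35.8 and 80.0 in shLAD1 cells, against 120.1 and 121, 107 and 104, and 72.0 and 79.0 in scramble cells.

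Counted over all 35 carriers, SLC1A4, SLC6A2, SLC6A12, SLC6A14 and SLC6A20 were higher in shLAD1 library 2 by a log2 difference of at least 1 at all 3 times. That is 14.3% of the carriers, against 3.69% of all genes tested (286 higher and 229 lower in library 2). In scramble cells SLC38A3 alone passed that mark, lower in library 2, which is 2.86% of the carriers against 1.89% of all genes. SLC38A3 was near the floor, with 21.7, 21.4 and 12.4 normalized counts in scramble library 1 and no more than 4.19 in any other library. It passed the count filter only through scramble library 1, so its direction here followed from the filter. Each library number of an shRNA was taken as 1 cell population, so these differences have no replicate, and no test was made.

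**Figure D5:**
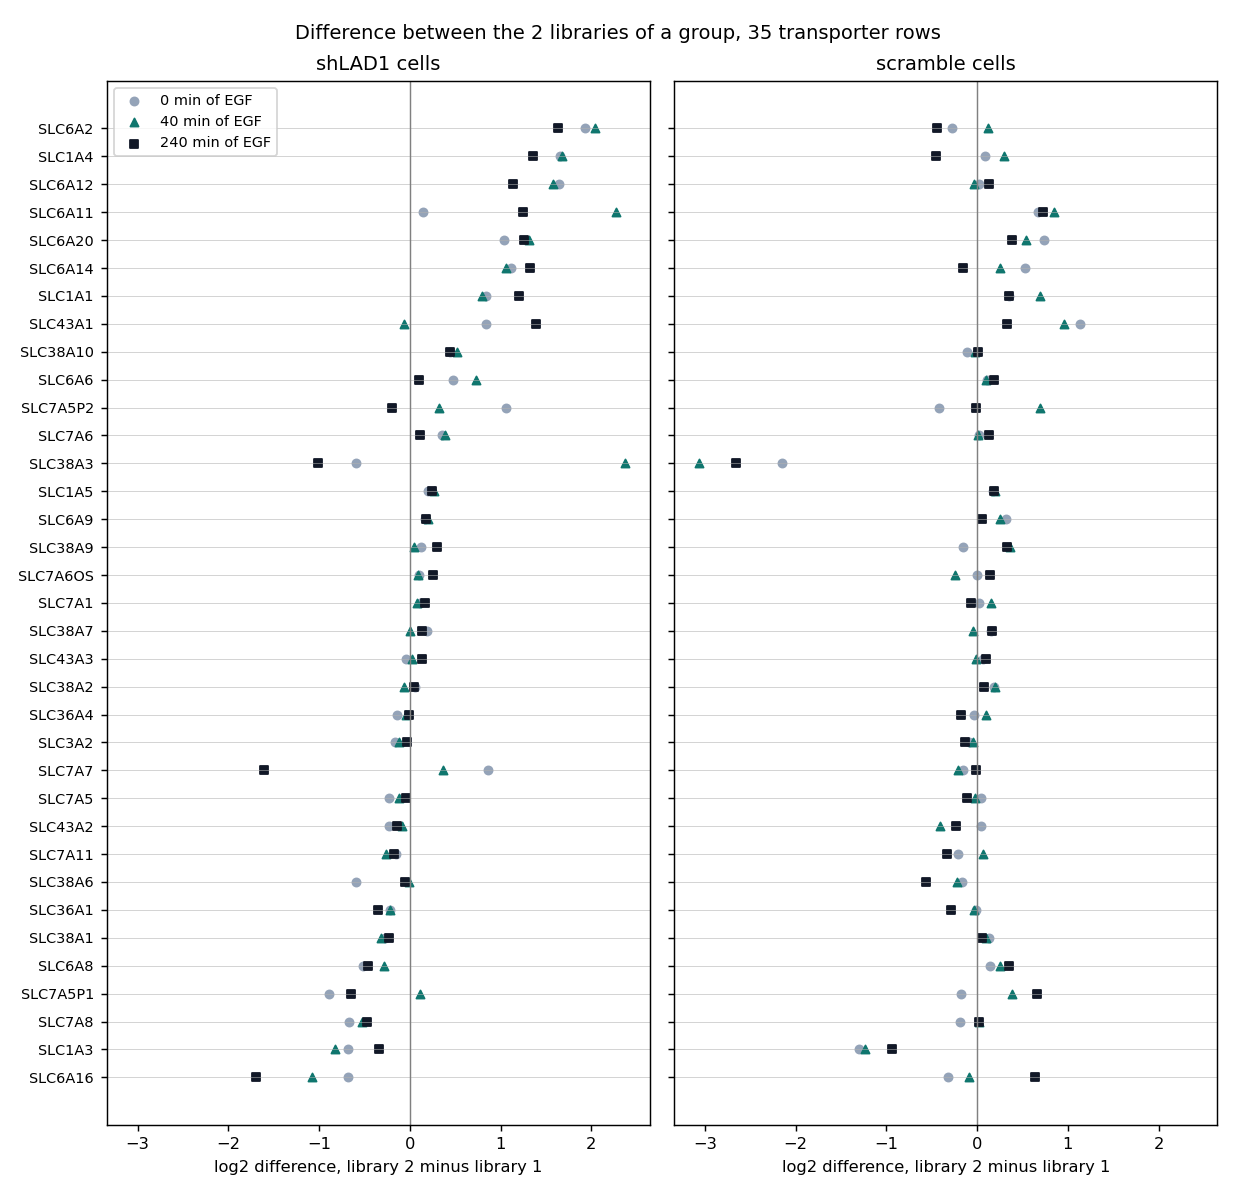
Log2 difference, library 2 minus library 1, for the 35 tested rows (horizontal axis) in shLAD1 cells (left panel) and scramble cells (right panel), with circles for 0 min, triangles for 40 min and squares for 240 min of EGF. SLC6A2, SLC1A4, SLC6A12, SLC6A20 and SLC6A14 lie right of 1 at all 3 times in shLAD1 cells, and SLC38A3 lies left of -1 at all 3 times in scramble cells.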

How the data were processed

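The authors deposited a table of gene symbols with 12 library columns of signal, which on the values were read counts divided by a size factor: whole reads, to within 0.001, were recovered for 100% of values (12428618 to 16721013 reads per library). The submitters' processing notes name STAR, DESeq2 and hg19; of versions, counting tool and annotation the sources used here say nothing. Per the labels, the libraries were poly-A selected and made with a TruSeq RNA v2 kit. The deposited table also holds the authors' log2 fold change with its p-values and a Wald score, for a contrast its headers do not name. For 99.98% of the 11243 genes with a mean of at least 50, that log2 fold change lay within 0.01 of shLAD1 over scramble at 0 min.

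Because the deposited values are normalized, limma-trend (3.58.1, R 4.3.3, robust) was fitted to log2(normalized count + 1), a scale that understates changes of low genes. All 12 libraries entered a fit of group means, which covered the 13950 genes that reached 10 normalized counts in 2 or more libraries, with p adjusted by Benjamini-Hochberg in each of 12 comparisons. Alternatives were no filter, a pseudocount of 5, upper-quartile and total-count scaling, edgeR 4.0.16 (TMM) and DESeq2 1.42.0 on recovered reads, replicate blocks, the compared groups alone and leaving out each library. An exact permutation test of 2 against 2 libraries cannot go below 0.333 and was not used.

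Deviations from group means of same-numbered libraries had correlations of 0.645 to 0.734 for the 6 group pairs within an shRNA and of 0.247 to 0.307 for the 9 across shRNAs, so the numbers pair the samples. Libraries of a group differed by more than counting noise (chi-square per degree of freedom 9.04 to 22.6). Members and gene lists were chosen with earlier results of these data known. Values are given for members called in any comparison, up to 3 per role by size of change, for 8 carriers set by name whatever their p (SLC3A2, SLC7A5, SLC7A11, SLC1A5, SLC38A1, SLC38A2, SLC7A1, SLC6A14), and for up to 4 called genes per pathway list. Other genes named with values were chosen after their values were seen.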

Additional observations from a re-analysis of the deposited data

How the results depend on the processing

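For the carriers called in a comparison, 0 values changed direction under the alternatives run, and 283 of 333 values under other settings and 169 of 268 values with a library left out kept the call. The number of carriers called moved as follows. Leaving out 1 library in turn gave 1 to 4 at 240 against 0 min in shLAD1 cells (5 with all libraries) and 1 to 2 in scramble cells (5), 1 to 3 (4) and 1 to 2 (7) at 240 against 40 min, 0 to 1 (1), 0 (2) and 0 (1) between shLAD1 and scramble cells at 0, 40 and 240 min, and 11 to 14 (14) averaged over times; it stayed at 0 at 40 min of EGF and for the responses compared. The replicate block by number gave 11 in shLAD1 and 11 in scramble cells at 240 against 0 min, 9 in shLAD1 cells at 240 against 40 min, and 11, 11 and 10 for the shRNA at 0, 40 and 240 min. The replicate block within each shRNA gave 2 in shLAD1 and 3 in scramble cells at 40 against 0 min, and 24 and 16 at 240 against 0 min. At 240 against 40 min it gave 19 and 19, beside 44.6% and 46.3% of all genes. Fitting only the groups compared gave 1 in shLAD1 and 10 in scramble cells at 240 against 0 min. It gave 0 in shLAD1 cells at 240 against 40 min (1.23% of all genes), and 0, 0 and 0 for the shRNA. DESeq2 gave 4, 6 and 4 for the shRNA, and total-count scaling 2 at 0 min (1.65% of all genes). No filter gave 4 at 240 against 40 min in scramble cells (11.7% of all genes), and 1 mean per cell population 0 averaged over times. The cause of these moves was not tested. Fitting fewer groups, or leaving out a library, leaves fewer samples to estimate the spread, and the part of that in these moves was not tested either.

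With 2 libraries per group and at most 6.29 normalized counts in any library, differences of the 22 rows with reads that did not pass were not tested.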
